A study of Rattus norvegicus with 15 samples.

Results

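The cytosolic ribosomal proteins are the protein part of the ribosomes that translate mRNAs of the nuclear genome. They were represented here by every probe set whose single gene symbol was Rpl or Rps followed by a digit, Rplp0, Rplp1, Rplp2 or Rpsa, with the S6 kinase genes (Rps6k) left out. This gave 57 probe sets for 50 genes out of 31042 probe sets in all: 38 probe sets for 34 genes of the large subunit and its stalk, and 19 probe sets for 16 genes of the small subunit. A pair of these symbols belong to pseudogenes (Rpl37-ps2 and Rps4x-ps1). A further 36 probe sets carry a ribosomal protein symbol together with others and were kept apart. Many ribosomal protein genes had no probe set of their own and are thus not among the members. Rplp1, Rplp2, Rps27, Rps4x, Rpl36a and Rpl22l1 are examples, as are Rpl8, Rpl9, Rpl10, Rps2, Rps14 and Rps18.

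RNA of the gastrocnemius muscle was measured in 15 male Wistar rats, 1 array per rat. The rats had been bought at 3.5 weeks of age and were fasted for 16 h before sampling. CN rats (n = 4) had eaten a diet with 15% casein for 4 weeks and LP rats (n = 4) a calorie-matched diet with 8% casein. CN-R (n = 3) and LP-R rats (n = 4) came from the same feeding groups and were sampled on day 84. The labels state that they kept their earlier diets after the first 4 weeks, whereas the study's methods give the control diet to both. According to those methods, rats near the average body weight of their group were taken for the arrays. The methods count 4 individuals, 1 for each group, whereas the titles number several biological replicates in each group. These are taken here as separate rats. CN-R replicate 4 stands among the controls by its title, while its treatment field names restriction, so late results are also given with it counted as LP-R.

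A ribosome joins rRNA with a fixed set of proteins, each present once in most cases, so that their genes tend to be expressed together. In vertebrates their mRNAs begin with a run of C and T bases, the terminal oligopyrimidine (TOP) tract, through which mTORC1, the amino acid and growth factor sensing kinase complex, controls their translation. Skeletal muscle holds much of the body's protein, and ribosome number limits how much protein a fibre can make. The arrays measured mRNA levels, not translation, and in whole muscle fewer cells of a type and less RNA per cell cannot be told apart.

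To show the tract beside the genes, the sequence from 40 bases before to 10 bases after the annotated start was read from the RefSeq promoters (GRCr8), which held 43 of the 50 genes. Those printed are the 6 genes whose probe sets varied in both sets of arrays, Rps28, whose CN and LP values did not overlap, and Rps27l, which spread widely in the late arrays. Capitals mark the longest run of C and T that touches the 10 bases on either side of the start.
Rpl3 (chr7:113507981-113508030, minus strand): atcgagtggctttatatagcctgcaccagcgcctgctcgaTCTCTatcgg
Rpl11 (chr5:153560793-153560842, minus strand): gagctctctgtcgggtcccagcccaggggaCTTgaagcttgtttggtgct
Rpl22 (chr5:168117921-168117970, plus strand): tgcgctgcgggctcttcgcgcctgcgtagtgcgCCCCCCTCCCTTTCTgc
Rpl34 (chr2:221962274-221962323, minus strand): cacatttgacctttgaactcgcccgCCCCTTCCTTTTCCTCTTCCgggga
Rplp0 (chr12:46718381-46718430, minus strand): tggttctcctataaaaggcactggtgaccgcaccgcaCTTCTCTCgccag
Rps9 (chr1:74430428-74430477, minus strand): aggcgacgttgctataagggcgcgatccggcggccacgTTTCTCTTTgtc
Rps28 (chr7:15311324-15311373, minus strand): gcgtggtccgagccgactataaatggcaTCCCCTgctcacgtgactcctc
Rps27l (chr8:76443618-76443667, plus strand): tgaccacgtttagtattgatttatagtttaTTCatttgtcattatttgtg

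The run was 20 bases long in Rpl34 and 15 in Rpl22, and 3 bases in Rpl11 and Rps27l. A run of at least 8 bases stood there in 25 of the 43 genes (58.1%) and in 10.6% of all 33469 promoters. It was present in 4 of the 6 genes that varied in both sets of arrays, in 9 of 15 that varied in 1 set and in 12 of 22 that varied in neither. Over the 300 bases of each promoter, the motif CCGGAAG, on either strand, was found in 10 of the 43 genes (23.3%) and in 8.75% of all promoters. The motif TATAAA, searched in the same way, was found in 6 of the 43 genes and in 14.2% of all promoters. The annotated starts may lie some bases from those used in muscle, and a match or its absence is a description of these letters alone.

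Most ribosomal protein probe sets carried no information on single rats. The values are log2 signals from FARMS, a summary that draws a probe set to a constant where its probes do not vary together. An SD over 0.01 over the 8 CN and LP arrays was found in 12 of the 57 probe sets (12 genes). This was 21.1%, against 12.8% of all probe sets. Over the 7 CN-R and LP-R arrays, 18 of 57 probe sets (17 genes) had an SD over 0.01, or 31.6% against 9.99%. Most members are bright, and bright probe sets varied more often than others. Among probe sets with a control mean over 10, 12 of 41 members varied in the early arrays (29.3%, against 52.8% of all such probe sets) and 15 of 41 in the late arrays (36.6%, against 44.7%). No member lay near the limit. In the early arrays the smallest SD above it was 0.021 (Rpl11) and the largest below it 0.0055 (a probe set of Rps3), and in the late arrays these were 0.025 (Rpl34) and 0.0032 (Rps15).

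**Figure D1:**
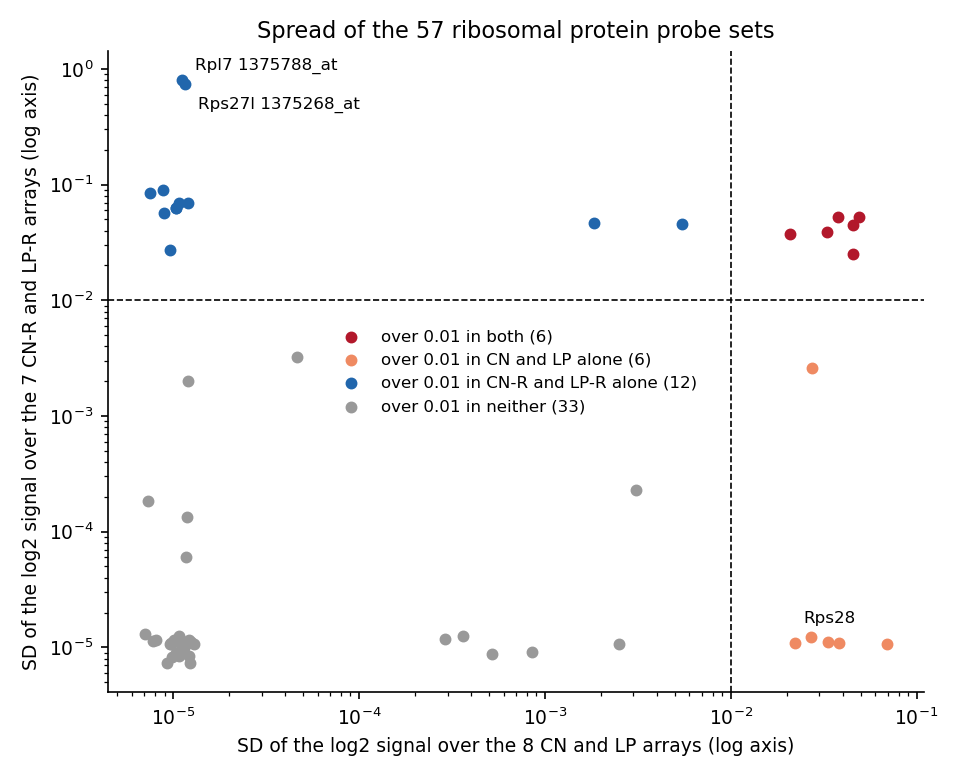
SD of the log2 signal of each of the 57 ribosomal protein probe sets over the 8 early arrays (horizontal, log axis) and the 7 late arrays (vertical, log axis), with dashed lines at 0.01. The legend gives the 6 probe sets over 0.01 in both sets of arrays, 6 in CN and LP alone, 12 in CN-R and LP-R alone and 33 in neither, and 2 probe sets stand far above the others in the late arrays.

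Among the probe sets held constant in both sets of arrays were those of Rps6, the substrate of the S6 kinases, of Rpl5, which binds 5S rRNA together with Rpl11, and of Rpl3l, the Rpl3 paralog of striated muscle. Their log2 signals were 12.06, 12.35 and 11.80 in the CN group and 12.09, 12.38 and 11.66 in the CN-R group. The early and late arrays were summarized apart, so these levels cannot be set against each other. For such probe sets FARMS leaves differences between groups of at most 0.0030 (log2), and a difference near 0 does not show that the mRNA was equal. The plot of SDs shows that the same probe set could be constant in 1 set of arrays and vary in the other, as for Rps28, which varied in the early arrays alone. Rpl3, Rpl14, Rps24 and Rpsa each had, beside a probe set that varied, at least 1 that was constant in both sets of arrays. The changes given below for these genes are those of the varying probe set alone.

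To learn whether 4 weeks of protein restriction changed ribosomal protein mRNAs, LP was compared with CN. No ribosomal protein probe set was called, higher or lower, by rank products at a percentage of false positives (pfp) up to 0.05, where 1.67% of all probe sets were called higher and 1.6% lower. Rank products assume that probe sets share their spread, which FARMS signals do not. On simulated data with such unequal spreads they also called many unchanged probe sets, so the pfp may understate the false calls here. By limma, also none was called, and no probe set of the whole array was. The smallest adjusted p by limma was 0.628 among the members and 0.0742 among all probe sets. Without adjustment, 1 member, Rps28, was higher by limma at p under 0.05 (3.96% of all probe sets were) and 0 were lower (3.58% of all).

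The 12 varying probe sets differed little between LP and CN, and 11 of them (10 after quantile normalization, which turned Rplp0) had the higher mean in LP, where 57.6% of all varying probe sets did and 42.4% had the lower mean. Their median change (LP minus CN, log2) was 0.023, against 0.017 for all varying probe sets. The median size of the change was 0.023 in the members and 0.070 in all varying probe sets. The changes ran from -0.010 for Rpsa, the small subunit protein also known as the laminin receptor, to 0.056 for Rpl34, a large subunit protein. On the linear scale the largest difference, that of Rpl34, was 3.99%.

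Among small subunit proteins, Rps28 had log2 signals of 11.48, 11.48, 11.44 and 11.47 in CN and 11.51, 11.51, 11.55 and 11.49 in LP. All 4 LP arrays lay above all 4 CN arrays, which held for 5.41% of varying probe sets in this direction and for 2.49% in the other. The change was 0.048 (SE 0.016, 3.41% on the linear scale), with an exact two-sided permutation p of 0.0286, the smallest that 4 against 4 arrays allow, a limma adjusted p of 0.628 and a pfp of 0.0845. It was the only varying member whose groups did not overlap. Rps9, which lies near the mRNA path in the small subunit, had signals of 11.99, 12.03, 12.03 and 12.08 in CN and 11.97, 12.08, 12.09 and 12.08 in LP. LP replicate 1 was below every CN array and the other 3 LP arrays were above them, and the change was 0.024 (SE 0.034). Rpsa had 11.83, 11.83, 11.84 and 11.82 in CN against 11.78, 11.85, 11.84 and 11.82 in LP, and the groups overlapped.

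Among large subunit proteins, Rpl34 had log2 signals of 11.85, 11.85, 11.82 and 11.91 in CN and 11.89, 11.91, 11.97 and 11.89 in LP. CN replicate 4 reached into the LP range, and the change of 0.056 (SE 0.026) had an exact permutation p of 0.0857. Rpl3, which reaches to the peptidyl transferase centre, had 10.46, 10.55, 10.48 and 10.51 in CN and 10.50, 10.52, 10.56 and 10.61 in LP, a change of 0.049 (SE 0.032) with overlapping groups. Rpl11, which can bind and inhibit Mdm2 when it is not in a ribosome, had 12.12, 12.12, 12.13 and 12.12 in CN and 12.16, 12.12, 12.18 and 12.14 in LP. CN replicate 3 was above LP replicate 2, and the change was 0.026 (SE 0.012, exact permutation p 0.0571).

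Rpl12, a protein at the base of the stalk, had a change of 0.035 (SE 0.026), and Rplp0, which carries the stalk, had 0.0027 (SE 0.029). The remaining varying members were Rpl18 (0.022, SE 0.052), Rpl22 (0.018, SE 0.024), Rpl35 at the exit of the peptide tunnel (0.013, SE 0.020) and Rpl7a (0.0095, SE 0.020), all of the large subunit. In each of these 6 the groups overlapped and the change was under 2 standard errors.

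A single rat stood out in this shift. LP replicate 3 was the highest of the 8 arrays for 10 of the 12 varying members, and its median deviation from the CN means was 0.064, while for all varying probe sets it was 0.023. The medians of the other LP arrays were -0.0033 for replicate 1, 0.016 for replicate 2 and 0.021 for replicate 4. The exceptions were Rpl3, highest in LP replicate 4, and Rpsa, highest in LP replicate 2. Without LP replicate 3 the median change was 0.0070 and without LP replicate 1 it was 0.036. Rps28 remained higher in all LP arrays without LP replicate 3, with a change of 0.036.

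**Figure D2:**
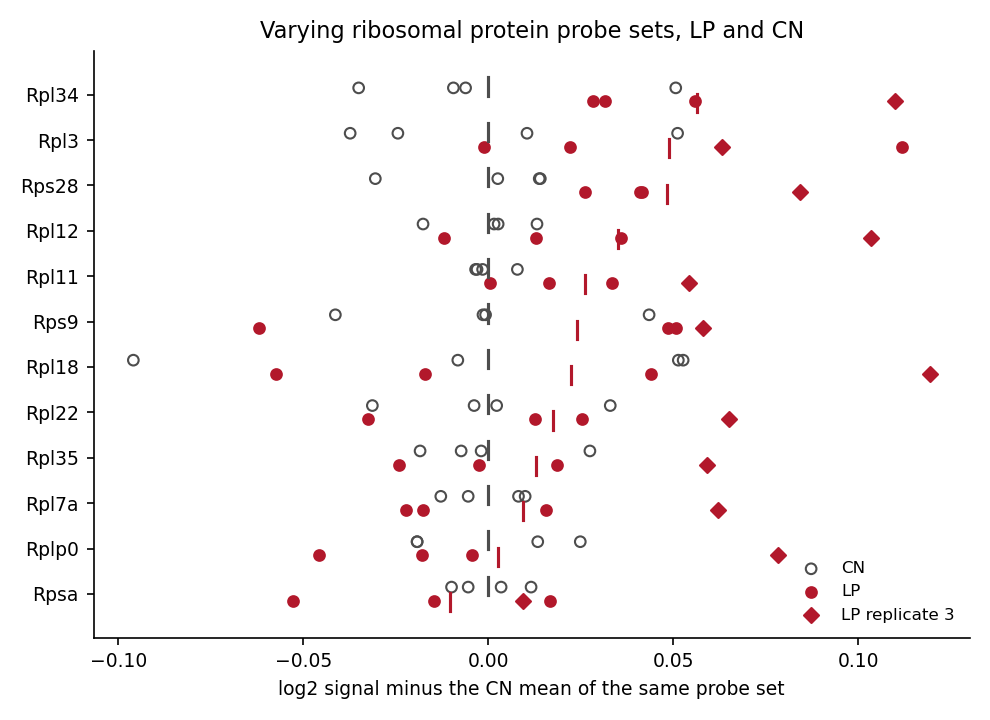
Log2 signal of each of the 12 varying ribosomal protein probe sets minus its CN mean, for the 4 CN arrays (open circles) and the 4 LP arrays (filled), with LP replicate 3 as a diamond and vertical bars at the group means. LP replicate 3 is the highest array in 10 of the 12 rows, and in the Rps28 row alone all LP arrays lie to the right of all CN arrays.

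The signals of the varying members were correlated from rat to rat. Over the 8 early arrays, 61 of the 66 pairs of members had a correlation above 0, with a median r of 0.48, against 0.019 over all pairs of varying probe sets. With the group means removed, the median was 0.47. The points of a pair share their arrays and hence the amount and quality of RNA on each, and the correlations are a description.

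The other cells of the muscle were followed through marker genes. In the early arrays 4 of 13 endothelial probe sets were called higher and 0 lower, where 1.67% of all probe sets were called higher and 1.6% lower. Kdr, the VEGF receptor of endothelium, had a change of 0.40 (SE 0.079). Of 13 probe sets of fibroblasts and matrix, 1 was called higher and 4 lower, and of 17 probe sets of muscle fibres none was called, 4 of the 8 varying having the higher mean in LP. None of these marker calls was made by limma, or by rank products run on the varying probe sets alone. The mean deviation of the fibre probe sets from their CN means ran from -0.020 to 0.027 in CN and from -0.11 to -0.00025 in LP, and that of the endothelial probe sets from -0.11 to 0.13 in CN and from 0.019 to 0.31 in LP. Their part in the changes of the ribosomal protein probe sets was not tested.

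To learn whether a difference remained or appeared later, LP-R was compared with CN-R. No ribosomal protein probe set was called by rank products, where 0.177% of all probe sets were called higher and 0.432% lower, and none by limma, where no probe set of the array was called either. The smallest adjusted p by limma was 0.969 among the members and 0.539 among all. Without adjustment, 1 member was lower by limma at p under 0.05 (2.46% of all probe sets were) and 0 were higher (2.59%). This was Rpl7l1, a paralog of Rpl7, whose probe set was constant at 8.21 in all 7 arrays. The exact permutation test of 3 against 4 arrays has 35 arrangements and cannot go below 0.0286. By this test 0 varying members had a p up to 0.05.

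Of the 18 varying probe sets, 14 (17 after quantile normalization, all but the dim Rpl7 probe set) had the higher mean in LP-R, where 34% of all varying probe sets did and 66% had the lower mean. In all 18 the groups overlapped, where 0.516% of varying probe sets were higher and 3.32% lower without overlap. The median change (LP-R minus CN-R, log2) was 0.0092 (0.023 after quantile normalization), against -0.024 for all varying probe sets, and the changes ran from -0.073 (Rpl7) to 0.032 (Rpl14). The median change lay between 0.0019 without CN-R replicate 2 or without LP-R replicate 2 and 0.038 without CN-R replicate 4. With CN-R replicate 4 counted as LP-R it was 0.052, 17 of the 18 probe sets (all but Rpl23a) had the higher mean, and 0 members were called, against 19 probe sets called higher and 40 lower on the whole array.

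The 2 members at the wide end were dim probe sets of Rpl7 and Rps27l. Rps27l is the paralog of Rps27 that p53 induces, and Rpl7 is a protein of the large subunit. The dim probe set of Rpl7 had log2 signals of 7.71, 7.14 and 7.69 in CN-R and 6.34, 6.64, 8.28 and 8.49 in LP-R. The probe set of Rps27l had 7.93, 7.38 and 7.90 in CN-R and 6.74, 6.99, 8.63 and 8.63 in LP-R. In both, LP-R replicates 1 and 2 were below every CN-R array and LP-R replicates 3 and 4 above every CN-R array.

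The signals of these probe sets spanned 2.14 and 1.89 log2 units over the 7 arrays, which placed their SDs at ranks 15 and 20 of all probe sets. No other varying member spanned more than 0.24. Their changes between the groups were -0.073 (SE 0.58) and 0.0076 (SE 0.54). Both were constant in the early arrays, at 8.04 and 8.13. By rank products both were called higher when LP-R replicate 1 or 2 was left out, and both lower when LP-R replicate 3 or 4 was, so that the direction depended on which rat was missing.

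The dim Rpl7 probe set and that of Rps27l followed each other over the 7 late arrays (r = 0.996). The other varying probe set of Rpl7, a bright one, had signals of 12.28, 12.26 and 12.29 in CN-R and 12.32, 12.31, 12.24 and 12.28 in LP-R, and its r with the dim one was -0.74. Probe sets of the same gene thus ran in opposite directions across these rats. Of the other varying members, 13 had an r below 0 with the dim Rpl7 probe set, and Rpl39l1, Rplp0 and Rps3 an r above 0. Of the other 3099 varying probe sets of the array, 168 (5.42%) had an r over 0.95 or under -0.95 with it.

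A control probe set for the 5′ part of Gapdh mRNA also had its lowest signals in LP-R replicates 1 and 2 and its highest in LP-R replicates 3 and 4. It was at 13.61, 13.61 and 13.62 in CN-R and at 13.52, 13.56, 13.67 and 13.66 in LP-R, with r = 0.957 with the dim Rpl7 probe set, while the probe set for the 3′ part was constant. The corresponding 5′ probe set of beta-actin was constant at 11.88 in all 7 arrays. A constant signal, here or for the 3′ part of Gapdh, does not show that the mRNA was equal. A control probe set for the middle part of Gapdh also followed the dim Rpl7 probe set (r = 0.933). The one for the middle part of beta-actin ran from 10.74 to 10.76 in CN-R and from 10.53 to 10.77 in LP-R. The 5′ probe sets read the end of the mRNA that is lost first when RNA is degraded or copied in part. Their part in the spread of these members was not tested.

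**Figure D3:**
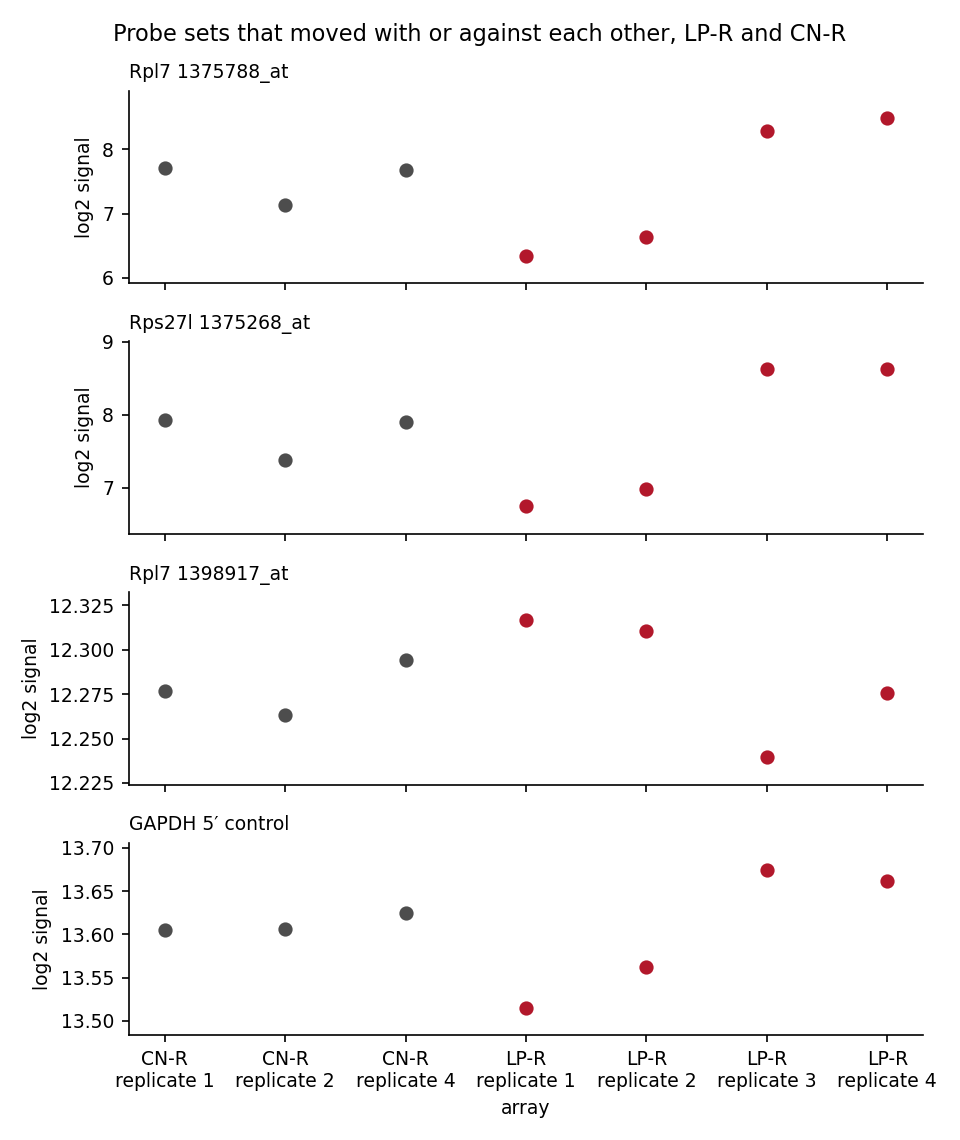
Log2 signal in each of the 3 CN-R arrays (grey) and 4 LP-R arrays (red) for the dim Rpl7 probe set, Rps27l, the bright Rpl7 probe set and the control probe set for the 5′ part of Gapdh, each panel with its own axis that does not start at 0. The panels of the dim Rpl7 probe set, Rps27l and Gapdh share their low and high LP-R arrays, and the bright Rpl7 probe set is high in LP-R replicates 1 and 2, where the dim one is low.

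Without these 2 probe sets, the median change of the varying members was 0.012. Rpl14, a large subunit protein, had log2 signals of 11.30, 11.39 and 11.44 in CN-R and 11.43, 11.44, 11.33 and 11.44 in LP-R, a change of 0.032 (SE 0.049). Rpl11 had 12.00, 11.98 and 12.01 in CN-R and 12.07, 12.01, 11.97 and 12.05 in LP-R, a change of 0.028 (SE 0.025). Rpl23a, a docking site for factors at the exit of the peptide tunnel, had 11.94, 11.99 and 11.98 in CN-R and 12.02, 12.03, 11.84 and 11.89 in LP-R, a change of -0.022 (SE 0.050). In Rpl14 and Rpl11 LP-R replicate 3 lay below part or all of the CN-R arrays, and in Rpl23a LP-R replicates 3 and 4 lay below all of them.

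Other positive changes were those of Rpl3 (0.027, SE 0.037), Rps3 at the mRNA entry of the small subunit (0.026, SE 0.040) and Rplp0 (0.022, SE 0.050). The changes of Rps9 (0.018, SE 0.035), Rps15a (0.014, SE 0.051), Rps24 (0.013, SE 0.061) and Rpl22 (0.0082, SE 0.028) were smaller. Rps24 and Rpl35a, the latter with a change of 0.0053 (SE 0.052), are genes mutated in Diamond-Blackfan anaemia in humans. Rpl39l1 had a change of 0.010 (SE 0.034), the bright Rpl7 probe set 0.0078 (SE 0.020) and Rpl34 0.0020 (SE 0.019). The change was -0.0013 (SE 0.076) in Rpl24 and -0.0077 (SE 0.060) in Rpl13a, which also takes part in translational silencing of inflammatory mRNAs. Each of these changes was smaller than its standard error. With CN-R replicate 4 counted as LP-R, the changes of Rpl24 (0.069), Rpl13a (0.061) and the dim Rpl7 probe set (0.063) turned from below to above 0. Under the same relabelling those of Rpl14 (0.070), Rps3 (0.070), Rplp0 (0.060), Rps15a (0.060), Rps9 (0.046), the bright Rpl7 probe set (0.018) and Rps27l (0.12) became over 1.5 times as large. So did those of Rpl35a, Rps24, Rpl39l1 and Rpl34. The changes of Rpl23a (-0.0085) and Rpl3 (0.019) became smaller in size.

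As in the early arrays, single rats stood out for many members at once. LP-R replicate 3 was the lowest array for 12 of the 16 varying members other than the wide pair, with a median deviation of -0.056 from the CN-R means. LP-R replicate 1 was the highest for 6 (median deviation 0.052) and CN-R replicate 4 for 5 (0.040). Of the 120 pairs among these 16 probe sets 98 had an r above 0, with a median of 0.57, against 0.052 for all varying probe sets.

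**Figure D4:**
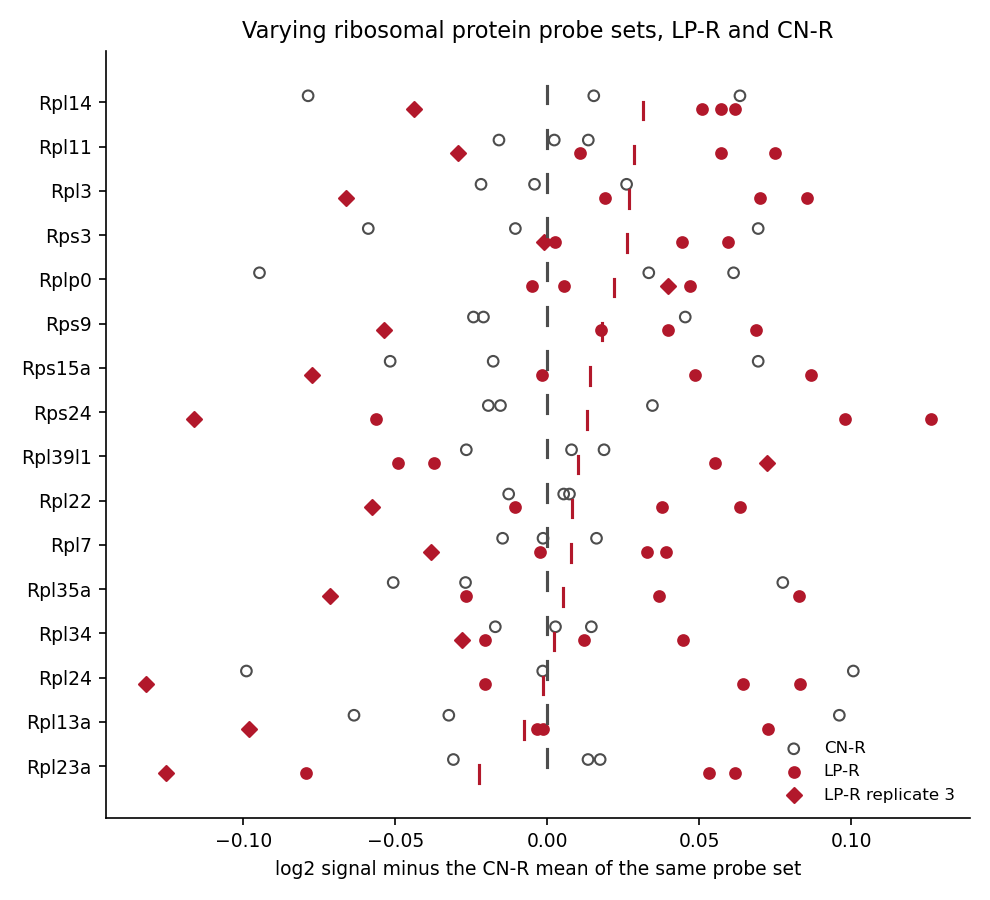
Log2 signal of the 16 varying ribosomal protein probe sets other than the wide pair, minus the CN-R mean of each, for the 3 CN-R arrays (open circles) and the 4 LP-R arrays (filled), with LP-R replicate 3 as a diamond and vertical bars at the group means. LP-R replicate 3 is the lowest array in 12 of the 16 rows and the groups overlap in every row.

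In the late arrays all 12 varying probe sets of fibroblasts and matrix had the lower mean in LP-R, with a median of -0.14, but none was called. Over all varying probe sets 66% had the lower mean, with a median of -0.024. The mean deviation of these matrix probe sets from their CN-R means ran from -0.10 to 0.092 in CN-R and from -0.38 to 0.055 in LP-R. The fibre probe sets had 5 of 10 higher and 5 lower means, with 1 called lower. Their part in the ribosomal protein values was not tested.

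The 6 probe sets that varied in both sets of arrays were those of Rpl3, Rpl11, Rpl22, Rpl34, Rplp0 and Rps9. Each had the higher mean in LP and in LP-R. For Rplp0, Rpl22 and Rpl34 this depended on single arrays and, for Rplp0, also on the scaling. The change of Rplp0 in LP was -0.023 without LP replicate 3, -0.0037 without CN replicate 1 or 2 and -0.0046 after quantile normalization, and in LP-R it was -0.026 without CN-R replicate 2. That of Rpl22 in LP-R was -0.010 without LP-R replicate 1 and -0.0016 without LP-R replicate 2. That of Rpl34 in LP-R fell below 0 without CN-R replicate 1, LP-R replicate 2 or LP-R replicate 4. The 6 changes were 0.049 and 0.027 for Rpl3, 0.026 and 0.028 for Rpl11, 0.018 and 0.0082 for Rpl22, 0.056 and 0.0020 for Rpl34, 0.0027 and 0.022 for Rplp0, and 0.024 and 0.018 for Rps9, early and late in turn. The difference between the late and the early change was tested for every probe set by an exact permutation of the labels within both sets of arrays (2450 arrangements). After Benjamini-Hochberg adjustment over all probe sets, the smallest p was 0.797 among the members and 0.689 among all. Without adjustment, 2 members had a p under 0.05. By this exact permutation test they were Rps28 (p = 0.0196) and Rpl28 (p = 0.0376), named here after their values were seen, and Rps28 was constant in the late arrays and Rpl28 in both.

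Genes that build, resemble or regulate the ribosome were followed beside its proteins. Of 74 probe sets for 55 genes of ribosome biogenesis, 8 varied in the early and 3 in the late arrays, and 0 were called in either direction in both comparisons. Of 24 probe sets for 14 other genes with TOP mRNAs, 0 were called either. Eef2, the elongation factor of ribosome translocation, had a change of 0.068 (SE 0.014) in LP, and Eef1a1, which brings aminoacyl-tRNA to the ribosome, one of 0.053 (SE 0.019). In the other direction Eif3l, a subunit of initiation factor 3, had -0.091 (SE 0.057) and Vim, an intermediate filament protein, -0.017 (SE 0.027). In LP-R 8 of the 11 varying probe sets of this list had the lower mean, with a median of -0.021. This was close to all varying probe sets, of which 66% had the lower mean, with a median of -0.024. In the list, Eif3l (-0.14, SE 0.11) and Vim (-0.049, SE 0.045) had the lower mean. Eef1b2 (0.016, SE 0.025) and Eif3h (0.024, SE 0.066) had the higher mean.

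A list of 31 genes that control the translation of ribosomal protein mRNAs had 48 probe sets. In LP 3 of them were called higher (1.67% of all probe sets were) and 2 lower (1.6% of all). The higher ones were Deptor, an inhibitor bound to mTOR (0.22, SE 0.056), Myc, an activator of ribosomal genes (0.17, SE 0.34), and Rps6ka2, a kinase of the RSK family (0.16, SE 0.12). The lower ones were Ddit4, an inhibitor of mTORC1 upstream of it (-0.72, SE 0.70), and Eif4ebp1, the repressor of cap-dependent translation that mTORC1 inactivates (-0.24, SE 0.14). A second varying probe set of Deptor had a change of -0.20 (SE 0.16) and was not called. The standard errors of Myc and Ddit4 were about as large as their changes or larger. Rank products over the varying probe sets alone called Ddit4 and none of the other 4, and limma called 0 of the 5. None of the 48 was called in LP-R.

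The ribosome of the mitochondria has its own proteins, and 5 of their 97 probe sets were called higher in LP and 0 lower. Of all probe sets, 1.67% were called higher and 1.6% lower. The 5 were Mrpl12 (0.12, SE 0.038), Mrpl38 (0.10, SE 0.023), Mrpl52 (0.097, SE 0.032), Mrpl42 (0.096, SE 0.034) and Mrps14 (0.087, SE 0.026). Of the 29 varying probe sets of this list 25 had the higher mean in LP, with a median change of 0.027. The median of the cytosolic members was 0.023. Over all varying probe sets 57.6% had the higher mean, with a median of 0.017. None of the 5 was called by rank products over the varying probe sets alone, or by limma. A second varying probe set of Mrpl52 had a change of -0.14 (SE 0.070). In LP-R, 0 of the 97 were called, and 13 of 31 varying had the higher mean, where 34% of all varying probe sets did. The difference between the cytosolic and mitochondrial lists was not tested.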

How the data were processed

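Total RNA of the gastrocnemius was hybridised to Affymetrix rat arrays, 1 for each of 15 rats. The deposited values are log2 signals, 1 for each probe set and array. The study's methods name FARMS, run in R by the authors, as their source. The early (CN, LP) and late (CN-R, LP-R) arrays were summarized apart and are compared only within each set. No further normalization was applied. Tests ran on 31042 probe sets, after removal of the 57 control probe sets. The values held no array numbered CN-R replicate 3. The methylation data were not used here. Gene symbols came from the platform annotation, with 1 symbol for 20826 probe sets, several for 436 and none for 9780. All 50 member symbols stand in RefSeq's gene table.

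Rank products were computed in Python 3.11.15 (numpy 2.4.6, pandas 2.3.3, scipy 1.17.1) from every restricted array set against every control array. The null came from 100 permutations within arrays (seed 1), and a pfp of 0.05 or less made a call. The permuted values of both directions were pooled into 1 distribution. That choice was made after both forms had been run and their calls seen, and the other form is given as an alternative. limma 3.58.1 (R 4.3.3, default prior) was fitted to each comparison separately, with Benjamini-Hochberg adjustment over all probe sets. Single members were tested by exact two-sided permutation, without adjustment. Rank products and limma were tested on simulated data whose probe sets varied as much as those measured. There, rank products called more unchanged probe sets than the pfp allows for. A second run on the varying probe sets alone is therefore given beside the calls. Whether either method finds changes as small as those of the varying members was not tested. Precision is limited by the number of arrays, each of them from 1 rat.

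The members and gene lists were chosen with earlier results of these data known. Probe sets with an SD over 0.01 across the arrays of a comparison are called varying. The genes named are every member called, the 8 varying members with the smallest limma p in each direction, a fixed set (Rplp0, Rpsa, Rps6, Rpl3, Rpl3l, Rpl22, Rps27l, Rpl5 and Rpl11 among those measured), and from the related lists every gene called and up to 2 more in each direction. Members outside this rule are named to account for all that varied. The markers of leukocytes, red blood cells, adipocytes, Schwann cells and satellite cells gave at most 1 call in a direction in each comparison. Alternatives were quantile normalization, aligned array medians, filters on signal and SD, probe sets with ambiguous suffixes left out, 1 probe set for each gene, array weights, a robust prior with a trend, a replicate block, each array left out and CN-R replicate 4 counted as LP-R.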

Additional observations from a re-analysis of the deposited data

Results flagged for a closer look

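Among 34 groups of 4 arrays examined for the named varying members, 3 (8.82%) held an array far from the others of its group, where chance marks about 1 in 20. For Rpl11, CN replicate 3 was the highest of its group at a log2 signal of 12.13, although the 4 CN arrays spanned 0.011 in all. For Rps9, LP replicate 1 was the lowest at 11.97, with the other LP arrays up to 12.09. For Rpl14, LP-R replicate 3 was the lowest at 11.33, with the others up to 11.44. No member differed between its early and its late change after adjustment over all probe sets.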

How the results depend on the processing

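No ribosomal protein probe set was called in LP against CN under any alternative run, by rank products or limma. In LP-R against CN-R, limma called none under any alternative, and rank products called from 0 to 2 when an array was left out, always Rps27l and the dim Rpl7 probe set (2 without LP-R replicate 1, 2, 3 or 4). With a separate permuted distribution for each direction, added after the data were seen, 1 was called higher, Rps27l, and over all probe sets the calls were 107 higher and 53 lower in place of 55 and 134. Whether the replicate numbers mark a pairing of rats or arrays was not tested. The deviations of same-numbered arrays correlated from -0.031 to 0.55 early and from 0.044 to 0.22 late. Those of differently numbered arrays correlated from -0.54 to 0.33 early and from -0.32 to 0.28 late. Most CN arrays correlated best with their own number, but most CN-R arrays did not. With a replicate block, rank products called 2 members lower in LP-R (Rps27l and Rpl7), but this block also drops LP-R replicate 3, which has no CN-R partner, and leaving out that array alone gave the same 2 calls. With the block 0 were called in LP, with 692 higher and 496 lower over all probe sets in LP, and limma 0 in both comparisons.

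Over all probe sets the calls in LP fell to 11 higher and 21 lower when those with an SD up to 0.01 were left out, and with single arrays left out they ran from 170 to 318 higher and from 198 to 446 lower. In LP-R the SD filter left 4 higher and 2 lower, and single arrays left out gave 5 to 62 higher and 7 to 134 lower. The median change of the varying members ran from 0.0070 to 0.036 in LP and from 0.0019 to 0.038 in LP-R with single arrays left out. Over all members, most of them constant, it was 4.8e-06 in LP, and with CN-R replicate 4 counted as LP-R it was 0.052 in LP-R. Of 264 values of single named members under the alternatives, all lay within 1 SD between replicates of the value reported. Leaving out 1 array can hardly move a group mean that far, so this does not show that the directions held. For some members the sign turned, and the change of the dim Rpl7 probe set in LP-R ran from -0.42 to 0.29 with single arrays left out. Constant probe sets limit what could be seen in 45 early and 39 late members.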

Other observations

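The 36 probe sets that carry a ribosomal protein symbol among several could not be given to 1 gene. In the early arrays 5 of them varied, with 4 higher means in LP, changes from -0.068 to 0.016 and 0 called. In the late arrays 17 varied, 14 of them with the higher mean in LP-R, with changes from -0.0057 to 0.069 and 0 called. Among all varying probe sets, 57.6% had the higher mean in LP and 34% in LP-R.

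The control probe set for 5S rRNA, the RNA that Rpl5 and Rpl11 carry into the large subunit, was outside the tests and was looked at after its values were seen. Whether its signal follows the amount of 5S rRNA was not tested. The log2 signal of this probe set ran from 7.81 to 7.95 in CN and from 7.74 to 7.78 in LP. The groups did not overlap. Of the varying probe sets tested, 2.49% were lower in LP without overlap. This share leaves out the 57 control probe sets, from which the probe set for 5S rRNA was picked. In the late arrays its log2 signal ran from 6.76 to 6.84 in CN-R and from 6.74 to 6.97 in LP-R, with overlapping groups.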
